A study of Homo sapiens with 44 samples.

Results

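The response to doxycycline (DOX) was measured in CHP134 cells with a DOX-inducible control shRNA, which are the cells that show what the drug and the switched-on vector do when no gene is targeted. The 12 arrays of this comparison, 6 with DOX and 6 with vehicle control, were chosen by their labels from the 40 distinct arrays of the series. Repeats A to F each gave 1 DOX and 1 vehicle array and were paired by letter. Columns titled as duplicates of repeats A and B were identical to their originals and were dropped.

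CHP134 is a human neuroblastoma cell line with an amplified MYCN gene. All 12 samples carried the same lentiviral FH1tUTG construct, which encodes GFP and a control hairpin (SCR in the labels), and the cells had been sorted for high GFP before use. The DOX samples received 2 µg/ml DOX for 40 h and the vehicle samples received vehicle control for the same time. The untransduced parental cells, and cells with an uninduced empty vector, were not among the samples analysed here, so the drug and the induced control hairpin cannot be told apart. Values are log2 intensities of transcript clusters, the array's unit for 1 gene, on Affymetrix Clariom S arrays. The labels call the samples repeats and do not say that they came from separate cultures. The main fit pairs the arrays by repeat letter. Its p-values set a change against the spread of the DOX minus vehicle differences over repeats, not against that of all samples. For each cluster limma draws this spread towards a value common to all clusters. If the repeats were technical, that spread is not the spread of separate cultures.

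DOX is a tetracycline antibiotic. Tetracyclines block bacterial ribosomes, and in animal cells they also slow the ribosomes of mitochondria, which make a small set of respiratory chain subunits. Known responses in other cell types include an imbalance between mitochondrial and nuclear subunits of the respiratory chain, induction of the ATF4 stress program and a shift towards glycolysis. Tetracyclines also bind metal ions and inhibit matrix metalloproteinases. In inducible vectors DOX releases the Tet repressor from the promoter, so that the hairpin is transcribed and processed by DROSHA, DICER1 and the Argonaute proteins. A line with a control hairpin is therefore needed to separate knockdown of the target from the effects of the drug and of hairpin processing.

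No gene was called changed by DOX in the control cells. Of 21448 clusters tested, 0 (0%) had an adjusted p under 0.05 by limma with the repeat letter as a block and Benjamini-Hochberg adjustment, and the smallest adjusted p was 0.998. At an unadjusted p under 0.05 there were 384 clusters higher with DOX (1.79%) and 449 lower (2.09%), together 3.88% of those tested. The mean changes had a median of 0.00 and a standard deviation of 0.11 over clusters on the log2 scale. With the thresholds of the study's own gene list (fold over 1.5, unadjusted p under 0.05 and adjusted p under 0.20), the count was also 0.

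The differences that remain possible were small for most genes. The median standard error of a change was 0.10, and the median 95% interval reached 0.21 to either side on the log2 scale, which is a 1.16-fold difference. For 21170 clusters (98.7%) the interval lay wholly within 1.5-fold in both directions, and for 21446 it lay within 2-fold. Of the 16578 clusters whose mean was above background, set by the negative control probe sets (95th percentile), 99.3% had an interval within 1.5-fold and all had one within 2-fold. These intervals, like those given below for single genes, are from the limma fit. They are for 1 cluster at a time and are not adjusted for the number of clusters.

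**Figure D1:**
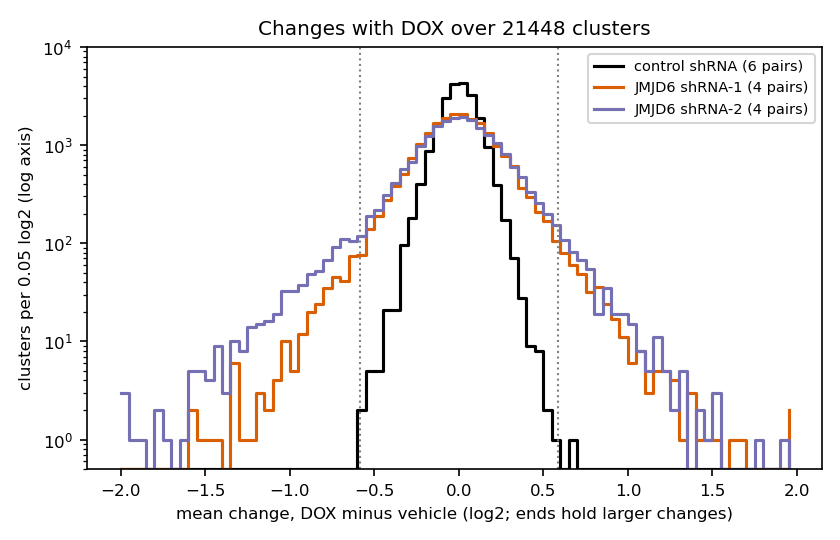
The number of clusters (log axis) at each mean change with DOX (log2, bins of 0.05) in the CHP134 control line and in both lines with a JMJD6 hairpin (shRNA-1 and shRNA-2), with dotted lines at 1.5-fold. In the control line 1 of 21448 clusters passed 1.5-fold, while the lines with a JMJD6 hairpin, which rest on 4 pairs each, spread further on both sides.

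JMJD6, the jumonji-domain protein that the hairpins of the other lines target, did not pass the test in the control cells. Its log2 level in the vehicle samples ranged from 7.65 to 8.16 with a median of 7.80, and with DOX from 7.63 to 8.06 with a median of 7.80. The groups overlapped almost entirely, and 1 of 6 repeats was higher with DOX. The mean difference was -0.05 with a 95% interval of -0.23 to 0.12 (exact sign-flip permutation test over 6 pairs, two-sided, p = 0.344, where the smallest possible p is 0.0312). In the lines with a JMJD6 hairpin, by limma in arrays not shared with the control cells, JMJD6 fell by 0.74 ± 0.12 (SE) with shRNA-1 and by 1.08 ± 0.11 with shRNA-2. The test of the difference, the mean change of both hairpin lines minus the change in control cells, gave -0.85 ± 0.14 (SE, limma on 28 arrays, adjusted p = 0.00047).

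E2F2, a transcription factor that drives entry into S phase, varied far more between repeats than with DOX. Its level was 9.0 to 9.21 in the arrays of repeats A and B and 8.06 to 8.40 in those of repeats C to F, with no overlap between these sets of repeats in either treatment. Within repeats the change with DOX ran from -0.12 to 0.19 and was positive in 4 of 6. Its mean was 0.04 with an interval of -0.14 to 0.21 (exact sign-flip permutation test, p = 0.562). The hairpin lines minus the control cells differed by -0.88 ± 0.16 (SE, limma, adjusted p = 0.0016).

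MYCN, the amplified oncogene of this line, was the brightest of the 4 genes of the study. Its level was 12.20 ± 0.13 (SD, n = 6) with vehicle and 12.24 ± 0.12 (SD, n = 6) with DOX. Repeats C and D were lowest in both treatments, and the difference within a repeat was at most 0.12. The mean change was 0.03 with an interval of -0.12 to 0.19, and 5 of 6 repeats were higher with DOX. The exact sign-flip permutation test gave p = 0.0625, where the smallest possible p is 0.0312. MYC, which is usually low in cells with amplified MYCN, was close to background, at 3.52 to 4.36 with vehicle and 3.68 to 4.44 with DOX. Its mean change was -0.03, with an interval of -0.24 to 0.17 (exact sign-flip permutation test, p = 0.844). The mean for MYC took the opposite sign, 0.05, without repeat C, in which MYC was 0.44 lower with DOX. The difference between hairpin lines and control cells was 0.33 ± 0.09 for MYCN (SE, limma, adjusted p = 0.018) and 0.38 ± 0.25 for MYC (adjusted p = 0.49).

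**Figure D2:**
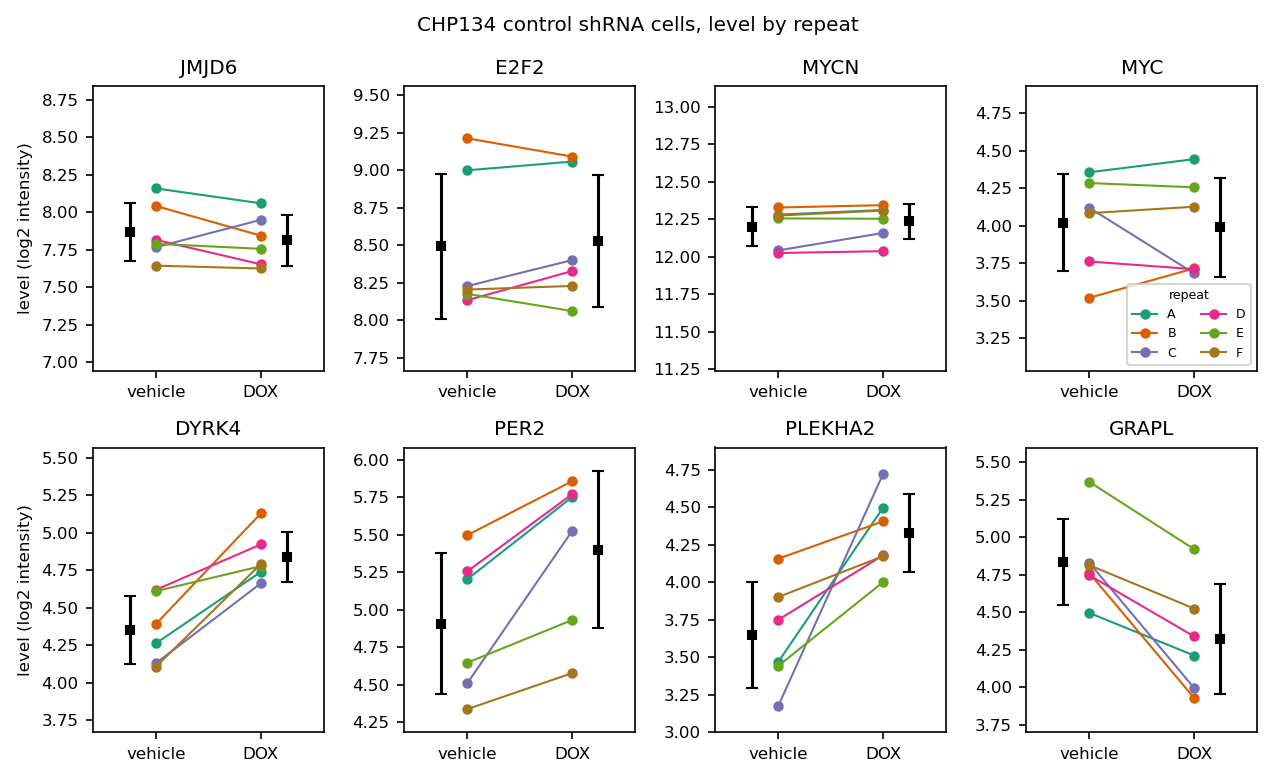
Log2 intensity with vehicle and with DOX in CHP134 control shRNA cells for the 4 genes of the study and 4 of the genes with the smallest p, 1 line per repeat, with black squares and bars for the mean and SD of 6 samples. Lines of JMJD6, E2F2, MYCN and MYC run flat or cross, and all 6 lines of DYRK4, PER2 and PLEKHA2 slope up, none of which passed the adjusted threshold.

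Because no cluster was called, the 12 named genes with the smallest unadjusted p in each direction are given as the upper edge of what these data hold, each with an adjusted p of 0.998 by limma. They were picked on these arrays, so their differences are larger than would be seen on average in new samples. The 12 higher ones differed by 0.34 to 0.68 and the 12 lower ones by -0.52 to -0.34 on the log2 scale. Of these 24 genes 13 were above background, compared with 77.3% of all clusters. Below background 6.59% of clusters had an unadjusted p under 0.05 and above it 3.09%. Dim clusters were thus more frequent at this edge.

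DYRK4, a kinase of the dual-specificity tyrosine-regulated family, had a level of 4.11 to 4.62 with vehicle and 4.66 to 5.13 with DOX. Every DOX array was above every vehicle array, as for 4 clusters in all (0.0186%), which were DYRK4, FDCSP, CARD8 and KRTAP19-7, a count whose members were looked up after their values were seen. The difference was 0.48 (95% interval 0.28 to 0.69). It was -0.10 ± 0.12 (SE) in shRNA-1 and -0.15 ± 0.10 in shRNA-2 cells, so the difference in the control cells was not found in the arrays of the other CHP134 lines.

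PER2, a repressor of the circadian clock, ranged from 4.34 to 5.50 with vehicle (median 4.92) and from 4.58 to 5.86 with DOX (median 5.64). The groups overlapped, and each repeat was higher with DOX, by 0.24 to 1.02, with the largest difference in repeat C. The mean difference was 0.49 (interval 0.26 to 0.72), next to 0.05 ± 0.14 (SE) in shRNA-1 and 0.87 ± 0.10 in shRNA-2 cells. Clusters higher in 6 of 6 repeats numbered 292 (1.36%) and those lower in 6 of 6 numbered 241 (1.12%). Of the named genes with the smallest p, 12 of 12 higher and 11 of 12 lower ones were among them. The choice by p favours such genes.

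PLEKHA2, an adaptor protein that binds phosphoinositides, had the largest fitted difference of all clusters and the only one over 1.5-fold. Its level was 3.18 to 4.16 with vehicle (median 3.61) and 4.0 to 4.72 with DOX (median 4.29), and the mean of the 12 control arrays was below the background limit. Each repeat was higher with DOX, repeat C by 1.55 and repeat B by 0.25. The mean difference was 0.68 (interval 0.34 to 1.02). PLEKHA2 was also higher with DOX in both hairpin lines, by 0.77 ± 0.12 (SE, adjusted p = 0.032) with shRNA-1 and 1.07 ± 0.11 (adjusted p = 0.0045) with shRNA-2. The hairpin lines minus the control cells gave 0.24 ± 0.18 (SE, limma, adjusted p = 0.54). In SK-N-AS control cells the difference was 0.05.

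CNTN5, a contactin of neuronal cell adhesion, was likewise higher in all 3 CHP134 lines. Its differences were 0.39 (interval 0.19 to 0.59) in control cells, 0.80 ± 0.18 (SE) in shRNA-1 cells and 0.53 ± 0.10 in shRNA-2 cells, of which the last passed the threshold (limma, adjusted p = 0.020). TNFAIP3, which restrains NF-κB signalling, differed by 0.34 (interval 0.17 to 0.52) in control cells, 0.23 ± 0.19 (SE) with shRNA-1 and 0.60 ± 0.13 with shRNA-2. The remaining higher genes were CES4A, OR2M2, P2RX4, NLRP11, NMRK1, CST9 and MAMLD1. Among these, P2RX4 encodes an ATP-gated ion channel and NMRK1 a kinase of nicotinamide riboside, a step of NAD synthesis, and their differences were 0.37 and 0.45. CES4A, OR2M2, NLRP11, NMRK1 and MAMLD1 were below the background limit on average.

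GRAPL, which resembles the signalling adaptor GRAP, had the lowest fitted difference of the named genes. Its level was 4.50 to 5.37 with vehicle (median 4.79) and 3.93 to 4.92 with DOX (median 4.28). The groups overlapped, and each repeat was lower with DOX. The mean difference was -0.52 (interval -0.73 to -0.30), next to 0.14 ± 0.14 (SE) and 0.20 ± 0.11 in the shRNA-1 and shRNA-2 lines.

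For C7orf33, ARSH and ZSWIM5 every DOX array was below every vehicle array, as for 6 clusters in all (0.028%). Their differences were -0.47, -0.35 and -0.42. C7orf33 and ARSH were below the background limit on average, and ZSWIM5 was above it. ARSH encodes an arylsulfatase. The other lower genes were TMEM92, KLRB1, PTAFR, MGLL, ZNF750, DCBLD1, TEKT2 and CPEB2, of which KLRB1 and TEKT2 were below the background limit on average. KLRB1 is a receptor of natural killer cells, PTAFR is the receptor of platelet-activating factor and MGLL is a lipase of monoacylglycerols. CPEB2, which binds a motif of mRNA tails, was -0.38 in control cells and 1.22 ± 0.26 (SE) and 0.77 ± 0.16 in the shRNA-1 and shRNA-2 lines.

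Of these 24 genes, 15 had the same sign in the shRNA-1 line and 12 in the shRNA-2 line, as read from arrays that the choice did not use. In the shRNA-1 line 1 of 24 was called, with the same sign, where 1.46% of all clusters were called in either direction (limma, adjusted p under 0.05). In the shRNA-2 line 6 of 24 were called, 4 with the same sign and 2, DCBLD1 and CPEB2, with the opposite sign, where 11.1% of all clusters were called. Both hairpin lines also lost JMJD6 on DOX, so a shared difference is not a measure of DOX alone.

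**Figure D3:**
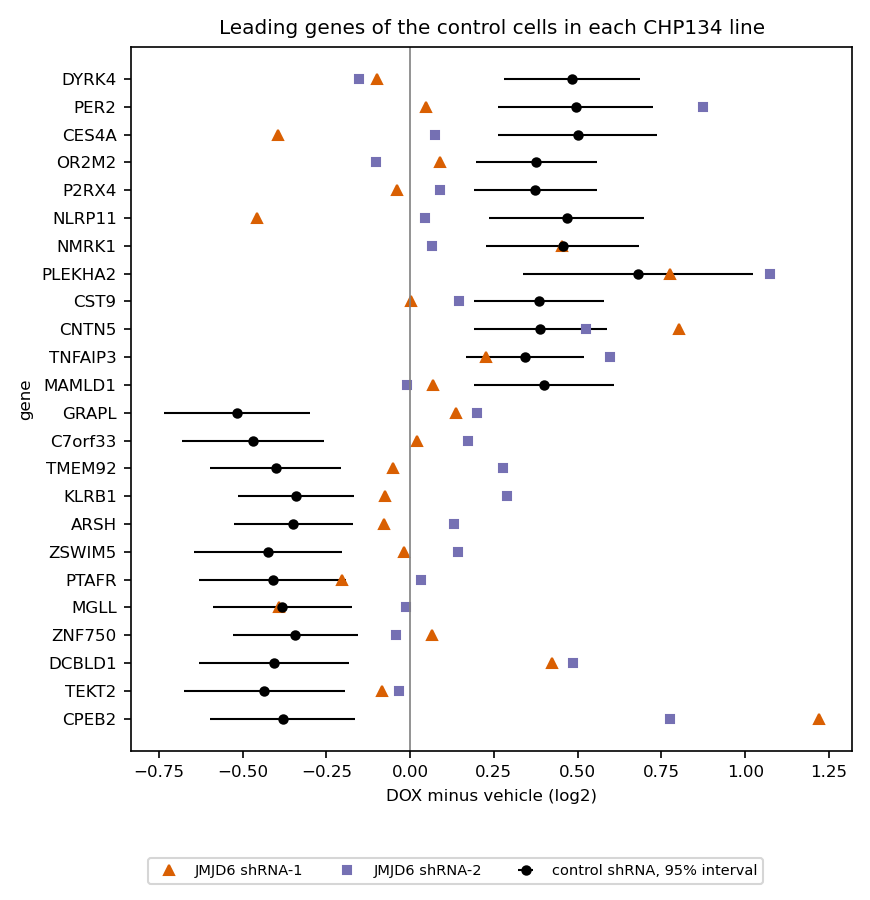
Mean change with DOX (log2) of the 24 named genes with the smallest p in the CHP134 control cells, as black points with 95% intervals, beside the mean change in the JMJD6 shRNA-1 (triangles) and shRNA-2 (squares) lines. The intervals of the control cells exclude 0 because the genes were picked that way, and the points of the hairpin lines lie on both sides of 0 (15 and 12 of 24 with the same sign).

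Gene groups that tetracyclines, an induced hairpin or a change in growth or identity could touch were then described as lists, beside the median change of 0.00 and the share of 51.6% above 0 for all clusters. None of the 940 clusters in 33 lists was called, and for 937 of them the 95% interval lay within 1.5-fold. At an unadjusted p under 0.05 there were 15 higher and 4 lower, which is 2.02% of the listed clusters and below the 3.88% of all clusters. The list medians ran from -0.11 to 0.08. Many of the members named below were picked for a small p within their list on these arrays. Their differences are therefore larger than would be seen on average in new samples. The same direction in each repeat follows partly from that choice.

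Proteins of the mitochondrial ribosome, the organelle's own translation machine and the animal target of DOX, had a median of 0.03 over 78 clusters, all within 1.5-fold. The list's median difference was 0.13 in repeat C, and without that repeat the median was 0.00 with 40 of 78 above 0, in place of 50 of 78. At the unadjusted threshold 1 was higher and 0 were lower. MRPL24, a protein of the large mitochondrial subunit, was that gene, at 7.76 to 8.34 with vehicle and 8.17 to 8.49 with DOX. The groups overlapped, each repeat was higher with DOX, and the difference was 0.25 (interval 0.06 to 0.44). Factors of mitochondrial gene expression had a median of 0.03 over 44 clusters. The largest differences among them were in VARS2 and MARS2, which charge mitochondrial tRNAs with valine and methionine, both at 0.23 and higher in 6 of 6 repeats. VARS2 was -0.39 ± 0.13 (SE) in the shRNA-1 line and -0.37 ± 0.10 in the shRNA-2 line, neither of which was called (limma, adjusted p = 0.195 and 0.059).

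Nuclear-encoded subunits of the respiratory chain had a median of 0.05, and 55 of 68 were above 0. This lean rested on repeat C. The list's median difference was 0.27 in repeat C and -0.04 to 0.04 in the other 5, and without repeat C the median was 0.00 with 42 of 68 above 0. ATP5F1D, a subunit of ATP synthase, was 8.24 in the vehicle array of repeat C and 9.46 or more in every other vehicle array, against 9.48 to 10.20 with DOX. The list as a whole did not stand apart in either array of repeat C. Relative to each cluster's mean it was at -0.11 with vehicle and 0.09 with DOX, within the -0.17 to 0.13 of the other repeats. Transcripts made by mitochondria themselves could not be examined, because 0 of the named clusters matched them. Mitochondrial chaperones and proteases, which answer unfolded proteins in the organelle, had a median of -0.02 over 17 clusters. HSPD1 and HSPE1, the chaperonin pair, both differed by -0.02.

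The integrated stress response, which mitochondrial inhibitors can induce through ATF4, had a median of 0.00 over 39 clusters. ATF4 differed by 0.00 (interval -0.16 to 0.17), ASNS, its target in asparagine synthesis, by 0.00 (interval -0.21 to 0.21) and TRIB3 by -0.05 (interval -0.23 to 0.14). DDIT4, an inhibitor of mTOR complex 1 that stress and hypoxia induce, had the smallest p of the list, at 0.27 (interval 0.03 to 0.51) and higher in 5 of 6 repeats. It rose by 0.89 ± 0.13 (SE) in the shRNA-1 line (limma, adjusted p = 0.032). Chaperones of the endoplasmic reticulum had a median of -0.03 over 20 clusters, and repeat C again set it apart, with a list median of -0.22 against -0.04 to 0.06 in the other repeats.

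Glycolysis and hypoxia genes were the only list whose median difference was above 0 in 6 of 6 repeats, although by no more than 0.07 in any. Among 33 lists 1 such list can arise by chance, and whether this one exceeds it was not tested. Of 35 clusters 24 were above 0, the median was 0.02 and 3 had an unadjusted p under 0.05, all higher. Of all clusters 1.79% were higher at that threshold. KDM3A, a histone demethylase induced by hypoxia, was at 5.34 to 6.06 with vehicle and 5.77 to 6.37 with DOX. PDK1, a mitochondrial kinase that inhibits pyruvate dehydrogenase, was at 6.31 to 7.36 and 6.80 to 7.61. The groups overlapped for both, and both were higher in 6 of 6 repeats, by a mean of 0.33 (interval 0.15 to 0.51) and 0.35 (interval 0.16 to 0.54). P4HA1, a collagen prolyl hydroxylase and the third gene of the list at that threshold, was 0.21 (interval 0.00 to 0.41).

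Other members of the list, named after their values were seen, had intervals that included 0. HK2, which phosphorylates glucose, differed by 0.08 (interval -0.12 to 0.28). SLC2A1, the main glucose transporter of cultured cells, differed by 0.07 (interval -0.13 to 0.26). LDHA, which makes lactate, differed by -0.03 (interval -0.21 to 0.16). PDK1 rose by 1.32 ± 0.16 (SE) in the shRNA-1 line (limma, adjusted p = 0.032) and was 0.02 ± 0.10 in the shRNA-2 line.

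Metal and iron response genes had the highest list median, 0.08 over 17 clusters, and it was -0.02 without repeat C. MT2A, a metallothionein that binds zinc and copper, differed by 0.09 (interval -0.20 to 0.37). Targets of NRF2, the regulator of antioxidant enzymes, had a median of 0.03 over 16 clusters (0.01 without repeat C), with NQO1, a quinone reductase, at 0.24 (interval 0.03 to 0.44). Matrix metalloproteinases and their inhibitors had a median of -0.02 over 25 clusters, of which 14 were above background. MMP11, named for its small p, was 0.33 (interval 0.10 to 0.56, limma, adjusted p = 0.998), and each repeat was higher with DOX. Drug efflux pumps had the lowest list median, -0.11, over 6 clusters of which 3 were above background.

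Genes that could answer the induced hairpin rather than the drug were near 0 too. The small RNA machinery had a median of -0.01 over 14 clusters, with DICER1 at -0.04 (interval -0.28 to 0.20) and AGO2, the slicing Argonaute, at 0.04 (interval -0.14 to 0.22). Interferon and RNA sensing genes, which respond to double-stranded RNA, had a median of 0.00 over 36 clusters, 23 of them above background, with 0 at the unadjusted threshold. ISG15 differed by -0.14 (interval -0.42 to 0.15) and IFIT1 by -0.01 (interval -0.20 to 0.18).

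Growth genes were compared because the lines with a JMJD6 hairpin differ in them. Replication genes under E2F control had a median of -0.01 over 53 clusters, with 1 higher and 0 lower at the unadjusted threshold. That gene was LIG1, the ligase of DNA replication, at 0.30 (interval 0.09 to 0.51). The median of the same list was -0.23 in the shRNA-1 and -0.44 in the shRNA-2 line. In the hairpin lines minus the control cells 14 of 53 were called lower (limma, adjusted p under 0.05). Of all clusters 6.18% were called in either direction. Mitosis genes had a median of -0.02 over 61 clusters in control cells. Ribosome biogenesis genes that MYC proteins activate had a median of -0.01 over 34 clusters, and cytosolic ribosomal proteins one of 0.03 over 54.

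Genes of cell death and identity were also within this range. Targets of p53 had a median of 0.03 over 25 clusters, with CDKN1A, the cell cycle inhibitor, at 0.03 (interval -0.20 to 0.26). ZMAT3, another p53 target, was 0.20 and higher in 6 of 6 repeats, and TP53INP1 was -0.21 and lower in 5 of 6. Genes of the BCL2 family had a median of 0.04 over 20 clusters. Neuronal differentiation genes had a median of -0.01 over 33 clusters, next to 0.40 and 0.34 in the shRNA-1 and shRNA-2 lines. In the hairpin lines minus the control cells 11 of 33 were called higher, where 6.18% of all clusters were called in either direction.

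The adrenergic identity of the line was checked with 6 markers, of which 5 had a named cluster. With vehicle HAND2 was 8.42 ± 0.27 (SD, n = 6), GATA3 9.99 ± 0.35 and ISL1 9.08 ± 0.07, and their changes with DOX were 0.07, 0.07 and -0.06. TH, the first enzyme of catecholamine synthesis, was 6.13 to 7.02 with vehicle and 6.01 to 6.68 with DOX. The groups overlapped, and each repeat was lower with DOX, by a mean of 0.20 (interval -0.37 to -0.03 for DOX minus vehicle). SLC6A2, which takes noradrenaline back into the cell, was 0.29 (interval 0.07 to 0.52). DBH, the enzyme that makes noradrenaline, was at 4.79 ± 0.28 and 4.98 ± 0.50 (SD, n = 6). The summed levels of markers of other cell types overlapped between treatments. The highest log2 sum was that of 28 mesenchymal neuroblastoma genes, 12.43 to 12.73 with vehicle and 12.42 to 12.53 with DOX, 25 of them above background. VIM was at 10.03 and TWIST1 at 9.24 with vehicle. The sum of 7 fibroblast markers, 6 of them above background, was 9.76 to 10.34 with vehicle and 9.97 to 10.28 with DOX. The log2 sum of 7 immune and blood markers was 7.96 to 8.44 with vehicle and 7.90 to 8.26 with DOX, and that of 6 endothelial markers 7.75 to 8.28 and 7.63 to 8.17. Of the immune and endothelial markers 5 of 7 and 5 of 6 were above background on average over the 12 arrays, with HBA1 at 6.87 and VWF at 6.25 with vehicle. PTPRC, which marks leukocytes, and KDR, the main VEGF receptor of endothelium, were below background. The part of all these markers in the results was not tested.

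**Figure D4:**
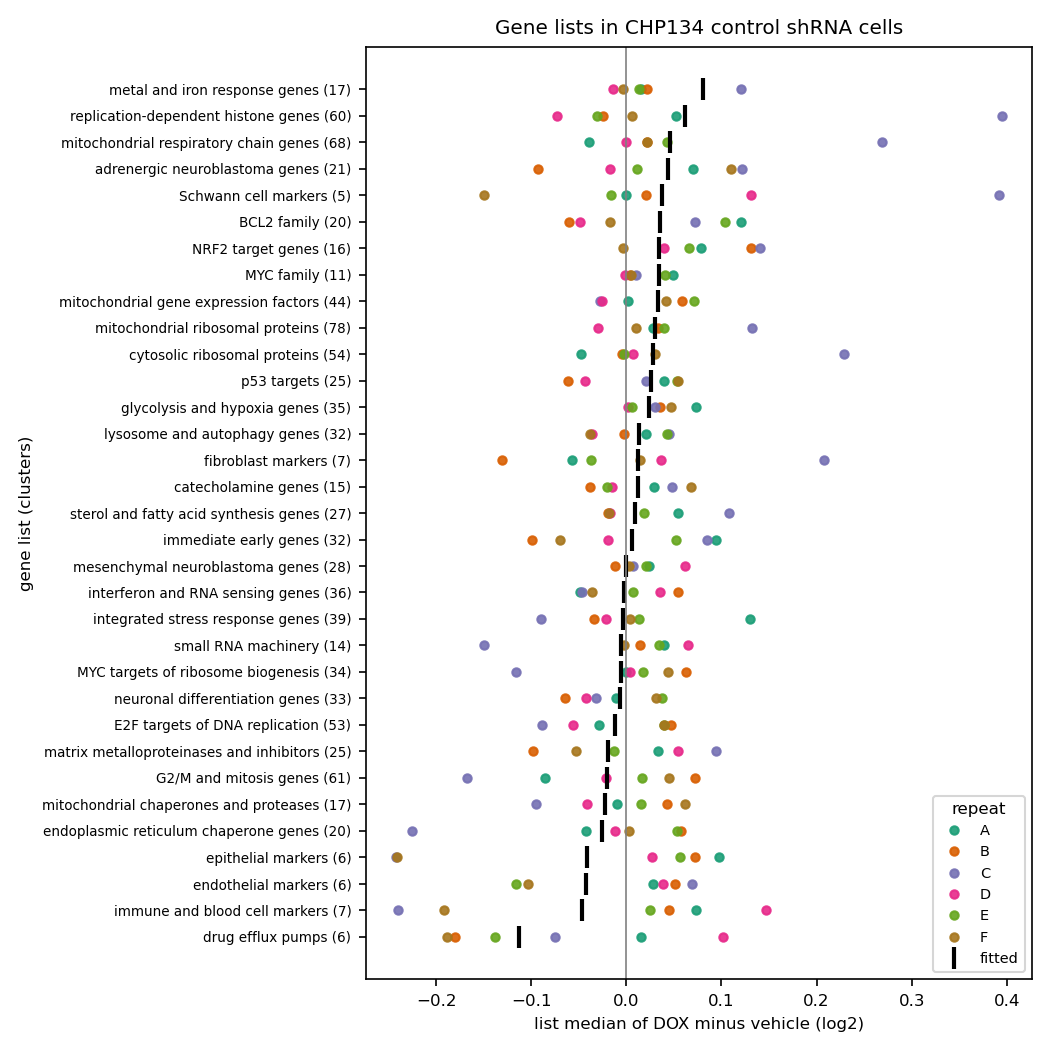
The median DOX minus vehicle difference (log2) of each gene list in CHP134 control shRNA cells, as 1 coloured point per repeat, with a black bar for the median of the fitted changes and the number of clusters in brackets. Points lie on both sides of 0 for 32 of 33 lists, and repeat C is the far point for histones (0.39), the respiratory chain (0.27) and cytosolic ribosomal proteins (0.23).

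Repeat C moved several lists together. Replication-dependent histone genes, whose mRNAs end in a stem-loop instead of a poly(A) tail, had a list median of 0.39 in repeat C, where 57 of 60 clusters were higher with DOX, and -0.07 to 0.05 in the other 5 repeats. Cytosolic ribosomal proteins had 0.23 in repeat C and -0.05 to 0.03 elsewhere, and the small RNA machinery -0.15 and 0.00 to 0.06. Histone genes of the same family are similar in sequence, so their clusters cannot be counted as independent measurements. Relative to each cluster's mean, the histone list was at 0.31 in the DOX array of repeat C, above the range of -0.13 to 0.08 of the 10 arrays of the other repeats, and at -0.11 in the vehicle array.

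Without repeat C the histone median was -0.01 with 28 of 60 above 0, in place of 0.06 with 46 of 60, and the ribosomal protein median was 0.00 with 26 of 54 above 0, in place of 0.03 with 44 of 54. The DOX array of repeat C had the lowest share of clusters above the negative control limit, 72.4%, and its vehicle array the next lowest, 74.7%, against 76.5% to 80.5% in the other 10 arrays, and the part of this in the list differences was not tested. Repeat C also had the most clusters that differed by over 1.5-fold between its own arrays, 1727, against 554 to 1233 in the other repeats.

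The 6 repeats did not share a pattern of change. Over the 21448 clusters, Pearson's r between the DOX minus vehicle differences of any pair of control repeats ran from -0.11 to 0.10 with a median of -0.01, and 6 of 15 pairs were above 0. These are correlations across genes, which are not independent replicates, and they are given as a description. With the clusters above background alone they ran from -0.14 to 0.15. In the same kind of comparison r was 0.16 to 0.34 between repeats of the shRNA-1 line, 0.43 to 0.49 between repeats of the shRNA-2 line and 0.21 to 0.34 between the lines, which do not share arrays. Between a control repeat and a hairpin repeat r was -0.07 to 0.12, and under the same letter -0.07 to 0.06.

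**Figure D5:**
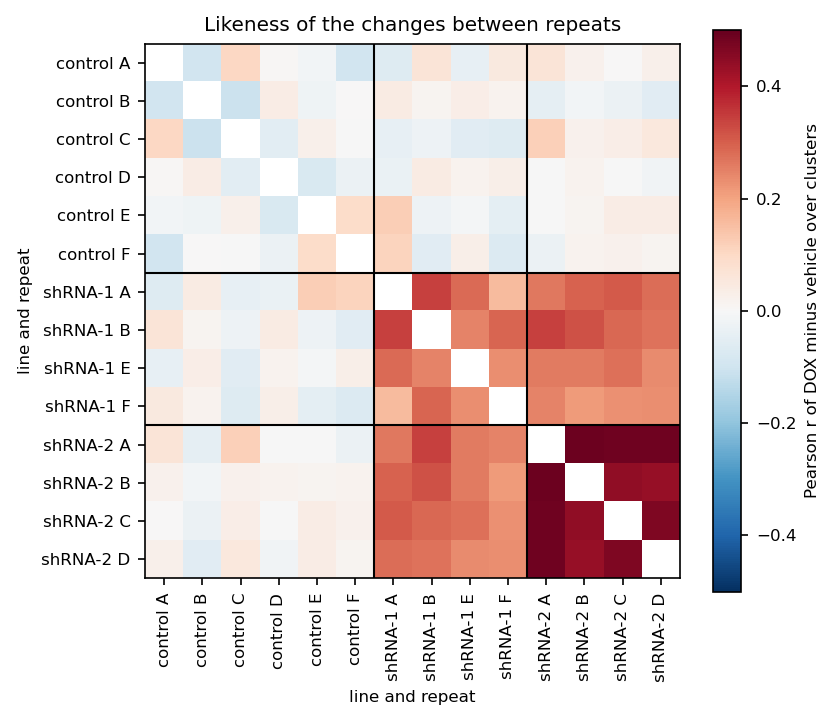
Pearson's r over 21448 clusters between the DOX minus vehicle differences of each pair of repeats in the 3 CHP134 lines, on a colour scale from -0.5 to 0.5. The block of the 6 control repeats is pale (-0.11 to 0.10), and the blocks of the JMJD6 shRNA lines are red (0.16 to 0.49).

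The size of the differences within a repeat was that of differences between arrays of the same treatment. The standard deviation over clusters of DOX minus vehicle was 0.23 to 0.33 log2 within a repeat. By the sample titles, letters A and B were used for all 3 CHP134 lines, C and D for the control and shRNA-2 lines, and E and F for the control and shRNA-1 lines. The series description gives the letters of the hairpin lines the other way round, and the titles were followed. The 12 control arrays are not affected by this, while the values under the same letter and the fits on 28 arrays with the block rest on the titles. Between arrays of 1 treatment the standard deviation was 0.24 to 0.35 for repeats of the same letter pair and 0.30 to 0.50 for repeats of different pairs. In the hairpin lines it was 0.33 to 0.41 (shRNA-1) and 0.33 to 0.48 (shRNA-2) within a repeat, and 1572 to 3922 clusters differed by over 1.5-fold.

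SK-N-AS cells, a neuroblastoma line without MYCN amplification that was normalized apart, gave the same count for their control shRNA. Of 21448 clusters 0 (0%) were called on 3 DOX and 3 vehicle arrays (limma without a block), with 502 at an unadjusted p under 0.05. That comparison was less precise, with a median standard error of 0.15 against 0.10 in the CHP134 control cells. A vehicle array (repeat 1) and a DOX array (repeat B) of that line stood apart from the other 4 and resembled each other, with r = 0.53 between their deviations and -0.53 to -0.47 with the other 4. Without them the counts were 0 and 1102. Of the 24 genes named for CHP134, 16 had the same sign in SK-N-AS with all 6 arrays and 17 without those 2.

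The count of 0 was also reached without the block, on all 28 CHP134 arrays, with array weights, and without any single repeat. The difference from the hairpin lines was itself tested, and 1326 clusters (6.18%) were called for the mean change of the JMJD6 shRNA lines minus the change in control cells (limma, adjusted p under 0.05). That count was 268 without the replicate block.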

How the data were processed

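RNA was measured on Affymetrix Clariom S arrays. The authors deposited RMA-normalized log2 intensities, and their processing notes name RMA and limma, with versions not given in the sources used here. RMA gives all arrays of a run 1 distribution, so a shift shared by most genes would be removed. The table held 44 columns for 40 distinct arrays (4 copies, largest difference 0), and samples were grouped by title. Of 27189 probe sets, 5741 controls were left out and 21448 clusters were tested, of which 17709 had 1 gene symbol and 3739 none.

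limma 3.58.1 in R 4.3.3 fitted DOX minus vehicle with the repeat letter as a block on 12 arrays, two-sided, with Benjamini-Hochberg adjustment and a threshold of 0.05. The script was tested on simulated data. The rule pairs arrays by letter. Deviations from the group means correlated by 0.41 to 0.51 between the vehicle and DOX arrays of a letter. They correlated by 0.19 to 0.47 between letters of the same pair (A and B, C and D, E and F). Between other letters the range was -0.42 to 0.06. Of the 12 arrays 9 were closest to their own letter. The same fit was run for each JMJD6 shRNA line (8 arrays), and the difference between the lines on 28 arrays. Background was set by the negative control probe sets (95th percentile), a mean log2 level of 4.16. The number of arrays limits the precision.

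Named genes were JMJD6, E2F2, MYCN and MYC, the 12 genes with the smallest p in each direction because none was called, and the first members by p of each list. Well-known list members were added after their values were seen. The comparison and the lists were chosen with earlier results of these data known. Alternatives were no block, all 28 arrays, median centring, a filter on dim clusters, trend and robust moderation, array weights, the study's thresholds and leaving out each repeat.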

Additional observations from a re-analysis of the deposited data

Results flagged for a closer look

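Of 89 groups of 6 values tested, 9 held a value far from the other 5 by Dixon's criterion, and chance gives about 1 in 20. Of these, 7 were the repeat C difference of a gene list. The list medians in repeat C were 0.39 for histones (others -0.07 to 0.05), 0.27 for the respiratory chain (others -0.04 to 0.04), 0.23 for cytosolic ribosomal proteins (others -0.05 to 0.03) and 0.12 for metal and iron genes (others -0.01 to 0.02). They were -0.22 for endoplasmic reticulum chaperones (others -0.04 to 0.06), -0.15 for the small RNA machinery (others 0.00 to 0.06) and -0.12 for ribosome biogenesis genes (others 0.00 to 0.06). The lists share the arrays of repeat C and are not independent of each other. NMRK1 had a vehicle level of 3.64 in repeat D (others 3.07 to 3.27) and a DOX level of 3.29 in repeat F (others 3.68 to 3.87).

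The change with DOX differed between the JMJD6 shRNA lines and the control cells, by the test of the difference on 28 arrays (limma), for 9 of the 28 named genes, where 6.18% of all clusters were called. The titles' repeat letters enter this fit as a block. It was -0.85 ± 0.14 (SE) for JMJD6, -0.88 ± 0.16 for E2F2 (adjusted p = 0.0016) and 0.33 ± 0.09 for MYCN (adjusted p = 0.018). For DYRK4 it was -0.61 ± 0.13 (adjusted p = 0.0070), for GRAPL 0.69 ± 0.20 (adjusted p = 0.036) and for C7orf33 0.57 ± 0.15 (adjusted p = 0.019). For ZSWIM5 it was 0.49 ± 0.13 (adjusted p = 0.026), for DCBLD1 0.86 ± 0.17 (adjusted p = 0.0028) and for CPEB2 1.38 ± 0.21 (adjusted p = 0.00026). The last 6 genes were picked for their difference in the control arrays, which enter this test, so their values are not independent of that choice. The changes of DCBLD1 were 0.42 and 0.49 and those of CPEB2 1.22 and 0.77 in the shRNA-1 and shRNA-2 lines, on arrays that the choice did not use.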

How the results depend on the processing

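The count of 0 called clusters was the same in 13 alternatives and with the study's thresholds, and the smallest adjusted p in any was 0.780, on all 28 arrays. The paired fit had 833 clusters at an unadjusted p under 0.05. There were 288 without the replicate block, 499 on all 28 arrays with the replicate block, 210 on 28 arrays without it, and 767 to 962 when 1 repeat was left out. The share of clusters with an interval within 1.5-fold was 92.5% to 99.3% over the alternatives. The JMJD6 shRNA minus control count was 1326 with the replicate block and 268 without it. Of the 28 named genes 27 kept their sign in every alternative, and MYC, at -0.03 with all repeats, ran from -0.077 to 0.049 when 1 repeat was left out, with 0.049 without replicate C. Most of the named genes were picked for the smallest p on these arrays. Nearly all of those differed in the same direction in every repeat. Leaving out 1 repeat cannot turn such a sign, so the count of 27 does not test those genes. List medians moved by less than 1 SD between repeats in 426 of 429 cases. The alternatives share most or all of the control arrays, which favours small moves. Dim clusters bound what can be seen: 22.7% of clusters were not above background, where a change in the transcript may not show.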
